A study of Mus musculus with 13 samples.

Results

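The 6 testis libraries labelled as Wfdc15a knockouts were compared with the 3 libraries labelled wild type, which together make 9 of the 13 libraries of the series. The rule used the labels only, and the 4 libraries of heterozygous mice were left out of the comparison. Whole testes of adult mice, 15 weeks old, had been freed of the tunica albuginea, the outer coat, before total RNA was purified. About 2 ng of that RNA went into each library by Smart-seq2, a method that copies polyadenylated RNA and amplifies it, here with 11 rounds of PCR. The wild-type group (WT, n = 3) carries genotype WT and the knockout group (KO, n = 6) genotype Wfdc15a-/-, with no treatment named for either. The sources used here name neither the design of the knockout allele nor the strain, litters or days of preparation. The titles also hold a number of unstated meaning, called the title number. All 3 WT libraries carry number 2, the first 3 KO replicates number 1 and the last 3, replicates 4 to 6, number 2. KO libraries of number 1 therefore differ from WT in genotype and in title number, and the 2 cannot be told apart there.

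The product of Wfdc15a is small and carries the whey acidic protein (WAP) domain, a disulfide-bonded fold known from secreted inhibitors of serine proteases. In the seminiferous tubules of the testis, spermatogonia divide and enter meiosis as spermatocytes, which yield round spermatids. These elongate, exchange histones for transition proteins and then protamines, build the tail and are released as sperm. Sertoli cells support the germ cells inside the tubules, myoid cells ring the tubules, and Leydig cells between them make testosterone. RNA of whole testis is a mixture of all these cells, so fewer cells of a type and less RNA per cell cannot be told apart in any result below.

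Levels are in RPM, reads of a gene per M (mega) reads of its library. Genes were assigned 4.22 to 9.37 M reads per library, and 18639 to 19289 genes had reads in each. A count of 0 allows up to 3 reads, equal to 0.304 RPM in the deepest and 0.665 RPM in the shallowest of these libraries, and that limit covers counting error only, since PCR copies were not told apart. Defining markers of spermatogonia, spermatocytes, spermatids, Sertoli, Leydig, myoid and endothelial cells and of macrophages had reads in all 9 libraries. WT replicate 1 stood apart from the other WT libraries. On the first principal component, which held 29.7% of the variance, it lay at 51.0, against 28.8 and 31.0 for WT replicates 2 and 3. KO libraries of number 1 lay between -40.4 and -27.9 and those of number 2 between -8.0 and 3.3. The second component held 13.05% and set the KO libraries of number 2 (21.1 to 30.8) apart from all others (-24.4 to -4.0).

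**Figure D1:**
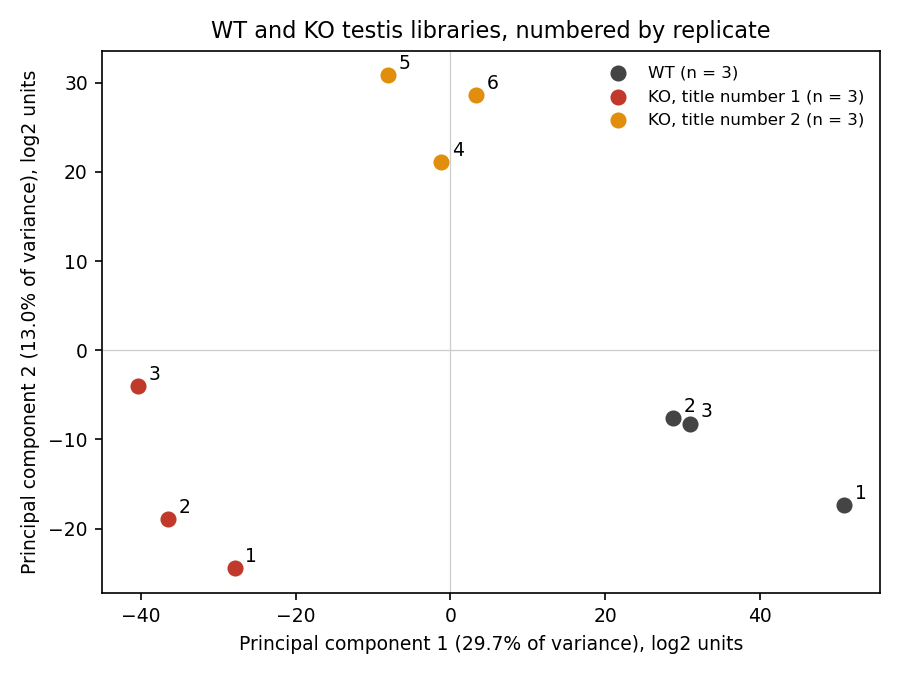
Each point is 1 testis library at its scores on the first (x axis) and second (y axis) principal components of log2(RPM + 1), in log2 units, numbered by replicate and coloured by group. WT, KO of title number 1 and KO of title number 2 form 3 separate sets, and WT replicate 1 lies farthest right at 51.0.

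Wfdc15a RNA itself was not lost in the libraries labelled KO. The gene lies on mm10 chromosome 2 from 164198863 to 164200130, on the minus strand. WT replicates 1 to 3 held 85.8, 57.5 and 53.5 RPM, and KO replicates 1 to 6 held 31.5, 19.4, 33.4, 54.1, 48.1 and 81.3 RPM. The 3 KO libraries of number 1 lay below every WT library, while those of number 2 overlapped the WT range. WT averaged 65.6 ± 17.6 RPM (SD, n = 3) and KO 44.6 ± 21.8 RPM (n = 6), a difference of -0.65 on the log2(RPM + 1) scale (two-sided exact permutation p = 0.143 over 84 splits, of which the smallest possible is 0.0238; limma adjusted p = 0.216). KO of number 1 averaged 28.1 ± 7.60 RPM, a difference from WT of -1.20 (limma adjusted p = 0.00471; exact p = 0.1, the smallest that 3 against 3 allows). KO of number 2 averaged 61.2 ± 17.7 RPM, a difference of -0.10 (limma adjusted p = 0.861, exact p = 0.6). Numbers 1 and 2 differed from each other by 1.10 (limma adjusted p = 0.0463, exact p = 0.1). The table holds 1 value per gene and library, so it does not show from which exons the reads came. Because this RNA level does not separate all KO libraries from WT, KO stands throughout for the label, and each direction is that between labelled groups.

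Of 16313 genes tested, 832 were higher (5.1%) and 477 lower (2.92%) in KO than in WT, by limma on log2(RPM + 1) with p-values adjusted over all tested genes and 0.05 as the threshold. Before adjustment 3919 genes had a p under 0.05. All 6 KO libraries lay above all 3 WT libraries for 1477 genes (9.05%) and below them for 757 (4.64%). This held for 715 of the genes called higher and for 448 of those called lower. The median difference was 0.83 over the genes called higher and -0.66 over those called lower, and 252 and 82 of them passed a 2-fold change. Over all tested genes the median was 0.14 above 0, so the lists below are read against that value. Shares of a list called are likewise read against 5.1% higher and 2.92% lower. With median-of-ratios scaling, which moves that median to 0.02, 385 genes were called higher and 704 lower, so the share of calls that were higher fell from 63.6% to 35.4%. With quantile normalization the counts were 342 and 466. Single libraries moved the counts: without WT replicate 1 they were 171 higher and 177 lower, without WT replicate 2 443 and 266, without WT replicate 3 505 and 297, and without KO replicate 3 470 and 337. Of the 112 genes named by rule and called, 64 lost the call without WT replicate 1, 34 without WT replicate 2, 35 without WT replicate 3 and 4 to 19 without a KO library. A loss named below is not always the only one. Of 19 alternatives Tex11 lost the call in 14, Sycp2, Ier2 and Wfdc1 in 13, and Wfdc10 and Cstb in 12. Tdrd1, Cd3d, Csf1 and Tapbp lost it in 11, Tyrobp, Prss39 and Sox9 in 9, and Actl9, Nsdhl and Neurl1a in 8. Of 18 alternatives Kdr lost it in 11 and Pik3cg in 9. Labels name separate samples but not their litters, so p-values measure the spread between these samples only.

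**Figure D2:**
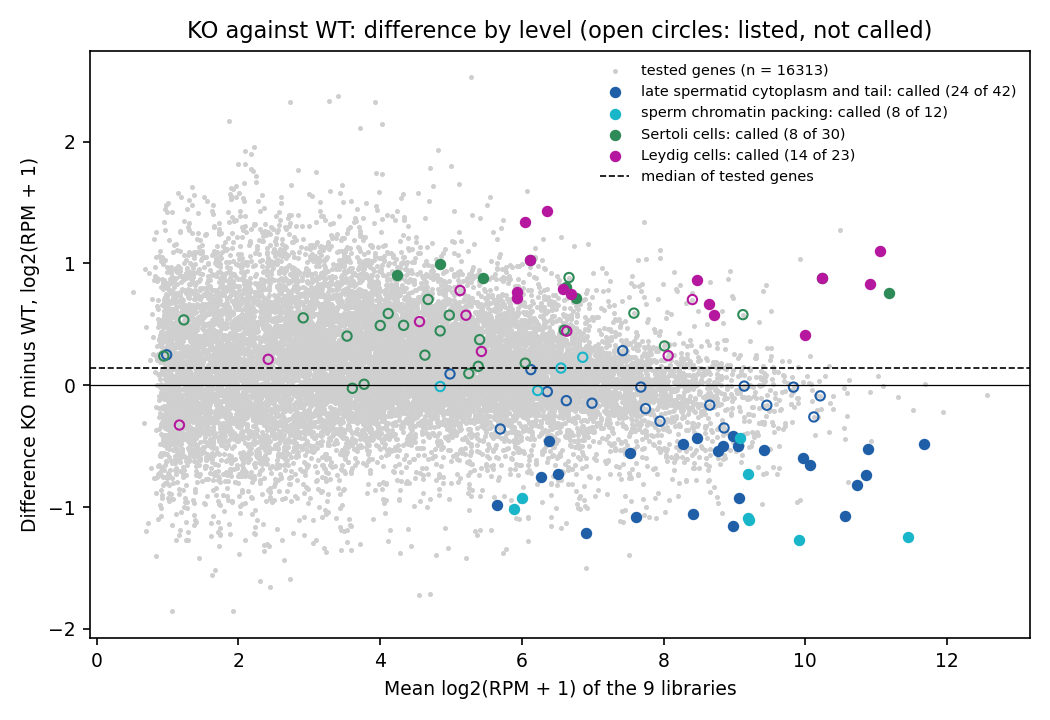
Each point is 1 of the 16313 tested genes, at its mean log2(RPM + 1) over the 9 libraries (x axis) and its KO minus WT difference in log2(RPM + 1) (y axis); filled coloured points are listed genes that were called and open circles listed genes that were not. Called sperm chromatin and late spermatid genes all lie below 0 and called Sertoli and Leydig genes all above the dashed median of 0.14.

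The steepest coordinated fall was among genes that pack the sperm nucleus. Of 12 tested genes of this list, 8 fell (66.7%) and none rose, with a median difference of -0.83, and without WT replicate 1 the count was 6. The 8 were the protamines Prm1, Prm2 and Prm3, the transition proteins Tnp1 and Tnp2, the spermatid histones H1fnt and Hils1 and the histone variant H2afb1. Prm1, Prm2, Prm3 and Tnp2 sit side by side on the minus strand of chromosome 16, between 10787936 and 10796886 in mm10, and Tnp1 lies on chromosome 1. The stretches of 120 bases before the RefSeq start sites of these 5 genes (build GRCm38.p6) are shown because the 5 fell together; capitals mark TATAA, the core of a TATA box, on either strand.
Prm1, chr16:10796824-10796943, minus strand: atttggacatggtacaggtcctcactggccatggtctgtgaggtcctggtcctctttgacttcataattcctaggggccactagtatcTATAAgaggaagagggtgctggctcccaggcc
Prm2, chr16:10792106-10792225, minus strand: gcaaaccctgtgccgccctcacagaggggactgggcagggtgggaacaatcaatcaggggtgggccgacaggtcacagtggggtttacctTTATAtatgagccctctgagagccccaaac
Prm3, chr16:10790915-10791034, minus strand: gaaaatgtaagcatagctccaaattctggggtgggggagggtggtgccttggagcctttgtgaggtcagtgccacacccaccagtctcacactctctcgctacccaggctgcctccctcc
Tnp2, chr16:10788656-10788775, minus strand: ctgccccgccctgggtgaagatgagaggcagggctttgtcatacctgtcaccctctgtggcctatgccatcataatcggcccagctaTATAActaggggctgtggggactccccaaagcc
Tnp1, chr1:73015900-73016019, minus strand: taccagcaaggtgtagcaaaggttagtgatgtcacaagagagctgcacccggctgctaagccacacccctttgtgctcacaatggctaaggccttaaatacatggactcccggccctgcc
By the deposited table's gene model, Prm1 starts 63 bases further upstream than in RefSeq. The letters began 32, 30 and 33 bases before the start site in Prm1, Prm2 and Tnp2, and none were found in the windows of Prm3 and Tnp1. Among 16003 RefSeq windows of 300 bases, 3578 (22.4%) hold them on either strand, and the motif was chosen after the values were seen.

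Prm1, a protamine that replaces histones in the sperm head, stood at 2480, 1441 and 1429 RPM in WT replicates 1 to 3 and at 516 to 982 RPM in KO, with a median of 679 RPM. No KO library reached the lowest WT library, and WT replicate 1 was far above the other WT libraries. The difference was -1.27 ± 0.19 (log2, SE; limma adjusted p = 0.00126), and without WT replicate 1 it was -1.01. Prm2, its partner, held 6235, 4548 and 4309 RPM in WT against 1556 to 2902 RPM in KO (median 2108 RPM), a difference of -1.25. Tnp1, a transition protein that precedes the protamines, held 1311, 837 and 874 RPM in WT and 359 to 588 RPM in KO (median 430 RPM), a difference of -1.10. Tnp2 held 1373, 842 and 779 RPM in WT and 332 to 643 RPM in KO (median 436 RPM), a difference of -1.09. In all 4 genes the groups did not overlap. H1fnt, a linker histone of spermatids, held 852, 800 and 789 RPM in WT and 431 to 600 RPM in KO, a difference of -0.73. These 5 genes kept their call in every alternative run. Summed over the list, WT replicates 1 to 3 held 13589, 9531 and 9246 RPM and KO 4212 to 6511 RPM.

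Genes of the late spermatid's cytoplasm and tail fell in number: 24 of 42 tested genes (57.1%) fell and none rose (median -0.47; 16 fell without WT replicate 1). Oaz3, the antizyme that limits polyamine synthesis in spermatids, held 2706, 2364 and 2390 RPM in WT. In KO it ranged from 905 to 1486 RPM with a median of 1245 RPM, so every KO library lay far below WT, with a difference of -1.08 ± 0.13 (limma adjusted p = 5.85e-04). Smcp, a protein of the mitochondrial capsule of the sperm midpiece, held 1116, 811 and 701 RPM in WT and 314 to 484 RPM in KO, a difference of -1.16. Spata3 held 615, 564 and 488 RPM in WT and 217 to 305 RPM in KO (-1.06). Spem1, needed to shed spermatid cytoplasm, held 362, 310.4 and 298 RPM in WT and 123.5 to 186 RPM in KO (-1.08). These 4 genes were called in every alternative run. Other members that fell were Akap4 (-0.74), the anchor protein of the fibrous sheath, and Odf1 (-0.98) and Odf2 (-0.48) of the outer dense fibres. The list's sum was 30563 to 32668 RPM in WT and 19486 to 24072 RPM in KO.

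Round spermatids showed a smaller difference, with calls only among genes of kinases and actin-like proteins. Of 26 tested genes 5 fell (19.2%) and none rose, with a median of -0.08, and 2 fell without WT replicate 1. Tssk6, a kinase specific to the testis, held 445, 379 and 430 RPM in WT and 134 to 269 RPM in KO (-1.04, limma adjusted p = 0.00420). Tssk2, of the same kinase family, held 643, 559 and 597 RPM in WT and 320.3 to 485 RPM in KO (-0.65). Neither gene's KO range reached WT, and both kept the call in every alternative. Tssk3 (-0.65), Actl9 (-0.37) and Actl7a (-0.36) completed the count, and Tssk3 and Actl9 lost the call without WT replicate 1 (adjusted p = 0.0656 and 0.0762). The acrosomal genes that define the stage did not pass the test: Acrv1 held 301 ± 14.4 RPM in WT (n = 3) and 306 ± 19.2 RPM in KO (n = 6), and Spaca1 229 ± 8.45 and 266 ± 26.1 RPM.

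In earlier germ cells the shares called are read against 5.1% higher and 2.92% lower over all tested genes. Among 23 tested genes of pachytene and diplotene spermatocytes 1 rose and 1 fell (4.35% each), near those shares, and the list's median was 0.05. Scaled by median-of-ratios, none rose and 3 fell, and the median was -0.08. Pgk2, the glycolytic kinase that replaces its X-linked copy in germ cells, held 966, 982 and 1034 RPM in WT and 553 to 830 RPM in KO (-0.50). Tdrd1, a Tudor protein of the piRNA pathway, rose by 0.41 with all KO libraries above WT. Neither call held without WT replicate 1 (adjusted p = 0.0651 and 0.112). Among 23 genes of meiotic prophase, Sycp2 (0.43) and Tex11 (0.81) rose (8.7%) and none fell, while with median-of-ratios scaling none rose and 3 fell. Neither Sycp2 nor Tex11 held without WT replicate 1 (adjusted p = 0.157 and 0.191). None of 16 genes of undifferentiated spermatogonia was called (median -0.15).

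Kit, the receptor tyrosine kinase of differentiating spermatogonia that Leydig cells also carry, was the only called gene of 14 on the differentiating list (7.14%). It held 32.7, 62.0 and 43.1 RPM in WT and 80.8 to 140.1 RPM in KO, with a median of 98.2 RPM. All KO libraries exceeded WT, by 1.198 ± 0.21 (limma adjusted p = 0.00338). Levels were 98.4 to 140.1 RPM in KO of number 1 and 80.8 to 97.9 RPM in KO of number 2, and Kit kept its call in every alternative. The list's median was 0.27.

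**Figure D3:**
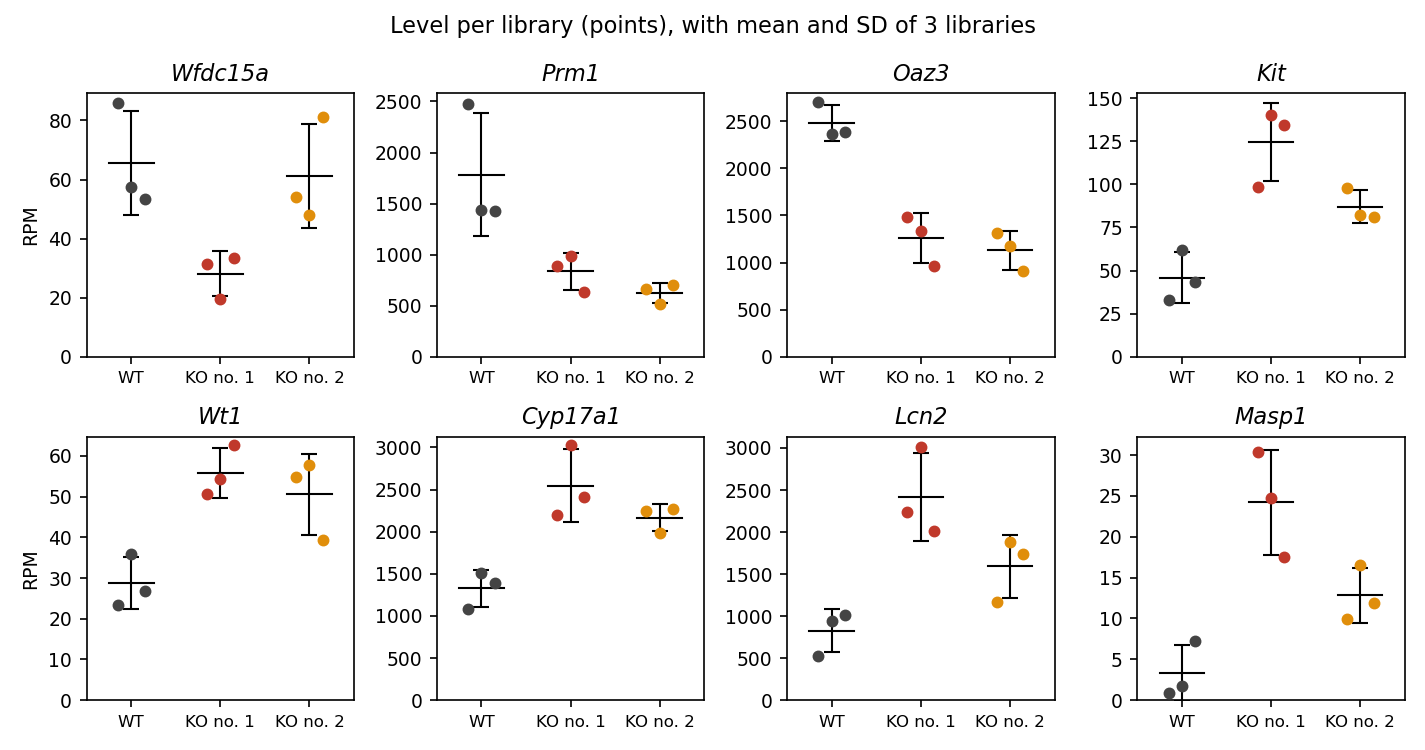
Levels of 8 genes in RPM (y axis, starting at 0) in WT and in KO of title numbers 1 and 2 (x axis); points are libraries, bars the mean and SD of 3 libraries. Wfdc15a of KO number 2 overlaps WT, Prm1 and Oaz3 lie below WT in all 6 KO libraries, and Kit, Wt1, Cyp17a1, Lcn2 and Masp1 lie above it.

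Sertoli cell genes rose: 8 of 30 tested genes (26.7%) were higher and none lower, with a median of 0.54. Without WT replicate 1 only 2 were called, and WT replicate 1 had the lowest sum of the list, 2984 RPM against 4263 and 4935 RPM in WT replicates 2 and 3. The sum was 7064 to 7602 RPM in KO of number 1 and 5354 to 6413 RPM in KO of number 2. Wt1, a transcription factor that maintains Sertoli identity, held 23.5, 35.8 and 26.7 RPM in WT and 39.3 to 62.6 RPM in KO (median 54.5 RPM). The groups did not overlap, and the difference was 0.88 ± 0.17 (limma adjusted p = 0.00689). Sox9, which drives Sertoli fate, held 7.59, 13.4 and 14.6 RPM in WT and 16.6 to 27.2 RPM in KO (0.90). Clu, a secreted chaperone abundant in Sertoli cells, held 1222, 1826 and 1978 RPM in WT and 2116 to 3351 RPM in KO (0.76), and Vim, the intermediate filament vimentin, rose by 0.81. Without WT replicate 1, Wt1 (adjusted p = 0.0572), Sox9 (0.183), Clu (0.0696) and Vim (0.0676) were no longer called. The remaining calls were Cldn11, a tight junction protein (0.72), Mro (0.99), and Nr5a1 and Aldh1a1, which stand on the Leydig list as well.

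Leydig cell genes rose most widely of the somatic lists described here: 14 of 23 tested genes (60.9%) were higher and none lower, with a median of 0.72. Without WT replicate 1 the count was 6, with median-of-ratios scaling 10, and with KO of number 2 alone 11. Cyp17a1, which makes androgens from progestins, held 1085, 1515 and 1388 RPM in WT and 1988 to 3026 RPM in KO (median 2256 RPM). Every KO library lay above every WT library, by 0.83 ± 0.12 (limma adjusted p = 0.00126). Cyp11a1, which opens steroid synthesis by cutting the cholesterol side chain, held 298, 286 and 289 RPM in WT and 402 to 541 RPM in KO (0.67). Nr5a1, the nuclear receptor SF-1 that switches on steroid enzymes, held 35.5, 56.1 and 37.8 RPM in WT and 70.2 to 110.3 RPM in KO (1.03). Ephx1, an epoxide hydrolase, held 194, 268 and 254 RPM in WT and 356 to 520 RPM in KO (0.87). These 4 genes and Aldh1a1, a retinaldehyde dehydrogenase (0.88), kept the call in every alternative.

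Insl3, the Leydig cell hormone of testis descent, held 1052, 1550 and 1267 RPM in WT. KO of number 1 held 3017 to 4837 RPM and KO of number 2 1941 to 2171 RPM, all above WT, and the 2 sets did not overlap (number 2 minus number 1: -0.81, limma adjusted p = 0.0173). Over all KO libraries the difference from WT was 1.10 (adjusted p = 0.00638), and 0.0572 without WT replicate 1. Hsd17b3, which makes testosterone from androstenedione, rose by 1.34, and Lhcgr, the receptor for luteinizing hormone, by 0.76 (73.5 ± 16.2 RPM in KO, 42.1 ± 3.98 RPM in WT). Lhcgr lost the call without WT replicate 1 (adjusted p = 0.0656) and without WT replicate 3 (0.0681). Hsd3b1 (0.57) and Hsd3b6 (1.43) are close copies whose reads the counting may have split, so each value is uncertain. Star, which brings cholesterol into mitochondria, was not called, with 172 to 304 RPM in WT and 262 to 723 RPM in KO (adjusted p = 0.0915). The sum of the list was 5392 to 6831 RPM in WT and 9517 to 14513 RPM in KO.

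**Figure D4:**
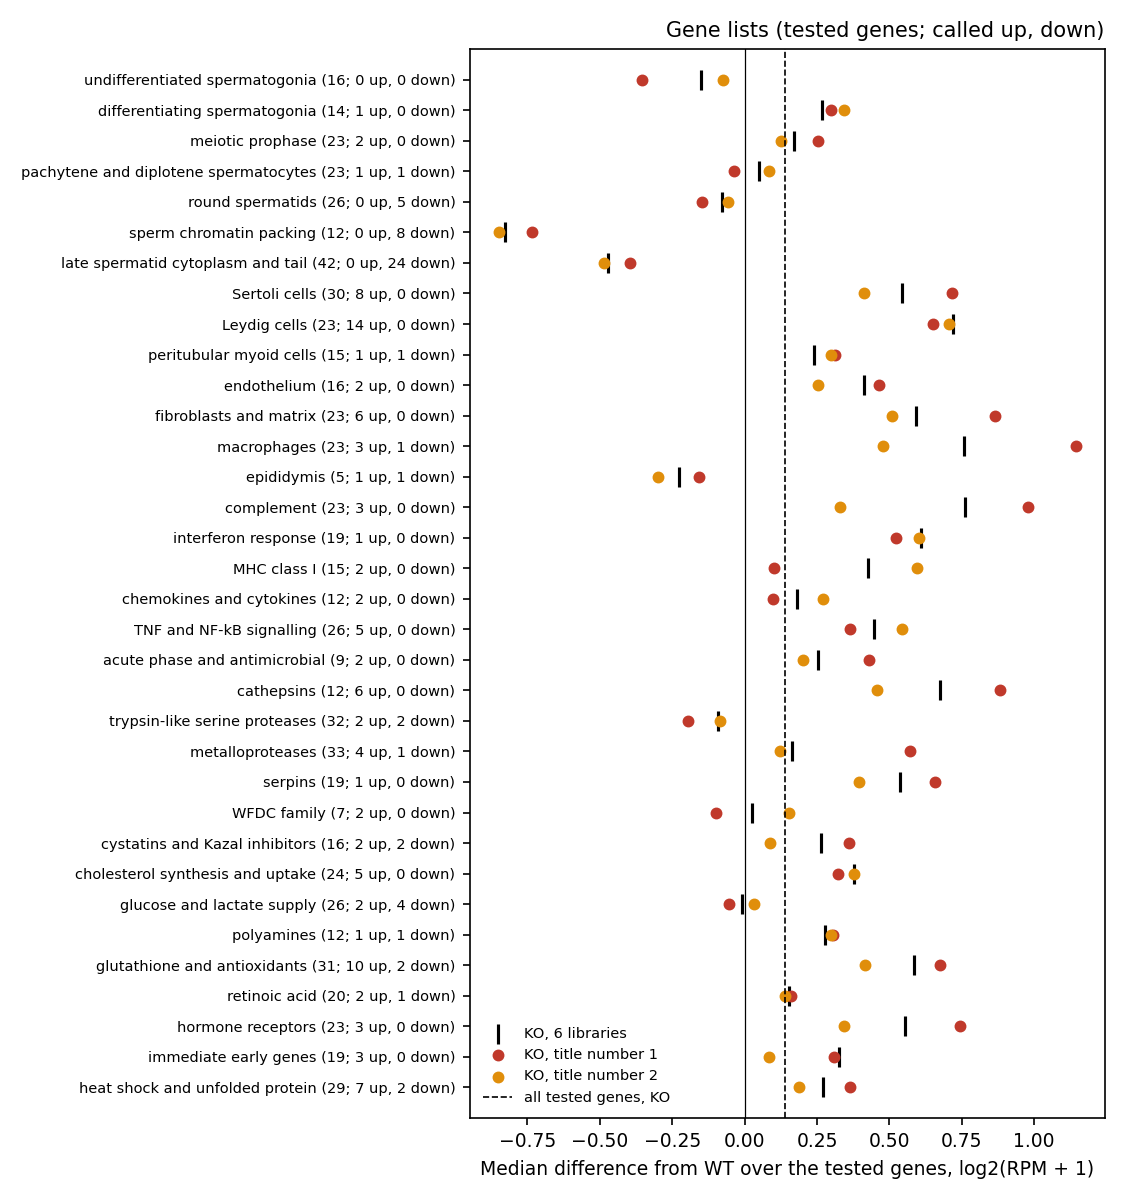
Median KO minus WT difference in log2(RPM + 1) (x axis) over the tested genes of each list with at least 5 tested genes (y axis), for all 6 KO libraries (black ticks) and for KO of title number 1 and of title number 2 (points), which share the WT libraries. Sperm chromatin packing (-0.83) and late spermatid genes (-0.47) lie farthest left, and the dashed line is the median of all tested genes, 0.14.

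Genes of matrix and vessels moved less evenly. Of 23 tested matrix genes 6 rose (26.1%) and none fell (median 0.59), but 1 without WT replicate 1. Col4a1, a basement membrane collagen, held 11.7, 11.8 and 12.9 RPM in WT and 19.3 to 42.3 RPM in KO, a difference of 1.18 ± 0.24 (limma adjusted p = 0.00731). All KO libraries were above WT, and those of number 1 (34.4 to 42.3 RPM) above those of number 2 (19.3 to 25.04 RPM). Col3a1, a fibrillar collagen, rose by 1.19, the small proteoglycan Dcn by 0.78 and the matrix glycoprotein Sparc by 0.83. None of these 3 was called without WT replicate 1 (adjusted p = 0.0585, 0.0656 and 0.0873).

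In endothelium 2 of 16 tested genes rose (median 0.41). Cdh5, the cadherin of endothelial junctions, held 0.202, 1.48 and 0.700 RPM in WT and 3.22 to 8.05 RPM in KO (1.81, adjusted p = 0.00541), with no overlap and a call in all 18 alternatives that tested it. The level in WT replicate 1 was under its 3-read limit of 0.304 RPM. The 4 heterozygotes spanned 0.0899 to 3.71 RPM and so reached into the KO range. Kdr, a receptor for vascular endothelial growth factor, rose by 1.39 with overlapping groups, a call lost without WT replicate 2 (adjusted p = 0.0994), without WT replicate 3 (0.141) and without KO replicate 1, 3 or 5. Pecam1, the other endothelial marker, stood at 3.99 ± 1.29 RPM in WT and 3.03 ± 1.86 RPM in KO and was not called. Among 15 genes of myoid cells 1 rose and 1 fell (6.67% each, against 5.1% and 2.92% of all tested genes). Tpm1, a tropomyosin, rose by 0.99 (12.3, 13.7 and 18.1 RPM in WT, 26.3 to 38.0 RPM in KO). Actg2, a smooth muscle actin, fell by 0.64 (278, 258 and 251 RPM in WT, 141 to 188 RPM in KO), and both kept the call in every alternative. Actg2 stood far above the marker Acta2 in level, and RNA of whole testis does not show which cells carried it. The defining marker Acta2 was at 63.9 ± 23.4 RPM in WT and 69.0 ± 20.5 RPM in KO and was not called.

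Tissue outside the testis was measured with the same lists. The epididymal marker Lcn8 had no reads in any of the 9 libraries, and Crisp1 and Gpx5 had none in KO and at most 3 reads in a WT library. On the epididymal list 5 genes were tested, of which Cst8, a cystatin, fell (-0.53) and Wfdc10 rose (0.75), 20% each. None of the 4 tested genes of erythrocytes or the 4 of adipocytes was called. Hba-a1, a globin, held 1.12 to 4.96 RPM in WT and 1.38 to 2.62 RPM in KO. Adipoq, the fat cell hormone adiponectin, held 19.8 to 38.7 RPM in WT and 16.0 to 20.9 RPM in KO.

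Of 23 tested macrophage genes 3 rose (13%, against 5.1% of all tested genes) and 1 fell (4.35%, against 2.92%), with a median of 0.76. Against WT, 10 genes were higher in KO of number 1 and none in KO of number 2. Over all tested genes, 8.18% and 1.64% were higher in those comparisons. Directly compared, no macrophage gene was called between numbers 2 and 1. Lyz2, lysozyme, held 25.7, 42.1 and 36.0 RPM in WT and 42.8 to 112 RPM in KO (0.95), and C1qa, a chain of complement C1q, held 5.97, 6.71 and 7.56 RPM in WT and 11.4 to 29.8 RPM in KO (1.13). Tyrobp, a signalling adaptor of myeloid cells, rose by 1.09. None of the 3 was called without WT replicate 1 (adjusted p = 0.156, 0.111 and 0.112). Csf1r, the defining receptor, lay at 20.9 to 26.2 RPM in WT and 27.4 to 50.6 RPM in KO, which did not overlap, but its adjusted p was 0.0523. Aif1 went the other way, with 397, 379 and 359 RPM in WT and 222 to 285 RPM in KO (-0.61, adjusted p = 0.00324), and kept the call in every alternative. Its level was far above that of Csf1r, and the cells that carried Aif1 RNA cannot be told here. Lymphocyte and neutrophil genes were near 0. The T cell marker Cd3e had at most 9 reads in a library and S100a8 none, while Cd3d, a chain of the same receptor complex, fell from 13.5 to 17.7 RPM in WT to 6.22 to 12.2 RPM in KO (-0.85), a call lost without WT replicate 1 (adjusted p = 0.191).

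On the list of acute phase and antimicrobial genes Lcn2 and Lbp rose. Lipocalin 2, the product of Lcn2, binds bacterial siderophores. Lcn2 held 531, 941 and 1012 RPM in WT and 1166 to 3007 RPM in KO, with a median of 1942 RPM. All KO libraries exceeded WT, those of number 1 (2008 to 3007 RPM) by more than those of number 2 (1166 to 1877 RPM), and the difference was 1.27 ± 0.23 (limma adjusted p = 0.00374). Lbp, the carrier of bacterial lipopolysaccharide, held 19.4, 28.0 and 18.5 RPM in WT and 38.6 to 57.3 RPM in KO (1.10). These 2 were the called genes of 9 tested on that list (22.2%), and both held in every alternative.

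Of 26 tested genes of TNF and NF-kB signalling 5 rose (19.2%) and none fell (median 0.45; 2 without WT replicate 1). Ikbkg, the regulatory subunit of the IkB kinase, held 17.1, 18.6 and 21.6 RPM in WT and 29.95 to 55.1 RPM in KO (1.09) and kept its call in every alternative. The span of Ikbkg overlaps another listed gene, so some of these reads may belong to that gene. The 2 receptors for TNF rose as well, Tnfrsf1a by 0.95 and Tnfrsf1b by 1.497, as did the kinase Ripk3 by 1.10, and Lcn2 is the fifth. Tnfrsf1a and Tnfrsf1b were not called without WT replicate 1 (adjusted p = 0.131 and 0.0932). Of 23 complement genes 3 (13%) rose (Masp1, C7 and Clu) and none fell, and without WT replicate 1 only Masp1 was called. Masp1, a serine protease of the lectin pathway, held 0.911, 1.74 and 7.28 RPM in WT and 9.97 to 30.4 RPM in KO (2.38 ± 0.41, adjusted p = 0.0036), above WT in all 6 libraries and called in every alternative. C7, a part of the membrane attack complex, held 38.0, 46.9 and 41.6 RPM in WT, 131 to 156 RPM in KO of number 1 and 58.0 to 67.1 RPM in KO of number 2. Its 3 groups did not overlap, and numbers 2 and 1 differed by -1.15 (limma adjusted p = 0.00170). The KO against WT call of C7 (1.13) was lost without WT replicate 1 (adjusted p = 0.104) and without WT replicate 3 (0.0632).

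Of 19 interferon response genes 1 rose (5.26%, near the 5.1% of all tested genes) and none fell, and without WT replicate 1 none was called (median of the list 0.61). Of 15 genes of MHC class I 2 rose (13.3%). B2m, its light chain, rose by 0.99 (31.9, 36.3 and 36.7 RPM in WT, 45.9 to 107 RPM in KO) and Tapbp, tapasin, by 0.48. Of 12 chemokine and cytokine genes 2 rose (16.7%). Cxcl12 rose by 0.95 (17.6, 29.8 and 33.9 RPM in WT, 47.7 to 56.0 RPM in KO) and Csf1 by 1.54. Cxcl12 kept the call in every alternative, and B2m, Tapbp and Csf1 lost it without WT replicate 1 (adjusted p = 0.0664, 0.197 and 0.104). Tapbp and Csf1 each lost it in 11 of 19 alternatives.

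Proteases and their inhibitors were followed because the targeted gene belongs to an inhibitor family. Lysosomal cathepsins rose in 6 of 12 tested genes (50%) and fell in none (median 0.68; 2 without WT replicate 1). Ctsd, the aspartic protease cathepsin D, held 138, 187 and 202 RPM in WT and 244 to 319 RPM in KO, all KO libraries above WT, by 0.71 ± 0.13 (limma adjusted p = 0.00391). Ctsz, a carboxypeptidase, held 14.1, 12.1 and 9.38 RPM in WT and 22.5 to 34.4 RPM in KO (1.11). Ctsd and Ctsz were called in every alternative. Ctsa (0.96), Ctsb (0.67), Ctsc (1.21) and Ctsh (0.69) made up the rest.

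Of 32 tested trypsin-like serine proteases 2 rose and 2 fell, with a median of -0.09. These are 6.25% each, against 5.1% higher and 2.92% lower over all tested genes. Htra1, a secreted protease of the matrix, held 21.7, 41.6 and 31.2 RPM in WT and 51.9 to 85.0 RPM in KO (1.07), called in every alternative. Prss35 held 13.6, 15.8 and 18.9 RPM in WT and 19.7 to 81.8 RPM in KO (1.43), with KO of number 1 (51.6 to 81.8 RPM) above KO of number 2 (19.7 to 46.6 RPM). Prss58 fell from 118 to 143 RPM in WT to 56.6 to 105 RPM in KO (-0.78), and Prss39 from 406 to 426 RPM to 304 to 355 RPM (-0.32). Without WT replicate 1, Prss35, Prss58 and Prss39 were not called (adjusted p = 0.102, 0.0685 and 0.135).

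Of 33 metalloprotease genes, a list that includes their tissue inhibitors, 4 rose (12.1%) and 1 fell (3.03%, near the 2.92% of all tested genes). Without WT replicate 1 it was 1 and 1. Ace, the angiotensin-converting enzyme that has its own short form in spermatids, held 513, 509 and 511 RPM in WT and 316 to 413 RPM in KO (-0.52, adjusted p = 0.00438), called in every alternative. The sheddases Adam10 (0.88) and Adam17 (0.70) and Mmp23 (1.56) rose. Adam10 (adjusted p = 0.0978) and Mmp23 (0.141) lost the call without WT replicate 1. Timp1, the tissue inhibitor, is described below.

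Of 7 tested genes of the WFDC family, the family of the targeted gene, Wfdc1 (0.91) and Wfdc10 (0.75) rose, 28.6% of those tested. With median-of-ratios scaling, and without WT replicate 1, none was called, and the median of 0.03 became -0.10 and -0.18. Of 19 serpins 1 rose (5.26%, near the 5.1% of all tested genes). Serpina5, an inhibitor of proteases in seminal fluid, was called, at 132, 194 and 239 RPM in WT and 209 to 520 RPM in KO (0.93), with overlapping groups. Its call was lost without WT replicate 1 (adjusted p = 0.164) and without WT replicate 2 (0.063). Of 16 cystatins and Kazal inhibitors Itih2 and Cstb rose, and Cstl1 and Cst8 fell. Itih2, a heavy chain of inter-alpha-trypsin inhibitor, held 4.45, 12.6 and 17.9 RPM in WT and 21.5 to 39.6 RPM in KO (1.58, adjusted p = 0.00603) and kept the call in every alternative. Cstb (0.81), Cstl1 (-0.78) and Cst8 (-0.53) lost it without WT replicate 1 (adjusted p = 0.189, 0.138 and 0.139).

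Genes of cholesterol synthesis and uptake rose in 5 of 24 (20.8%) and fell in none (median 0.38), but none was called without WT replicate 1. Hmgcs1, which opens the pathway, held 66.6, 81.4 and 71.5 RPM in WT and 93.4 to 140.1 RPM in KO (0.57). Sc5d (0.80), Nsdhl (0.60) and Cyp51 (0.40), all enzymes of sterol synthesis, rose as well. Of 26 genes of glucose and lactate supply 2 rose (7.69%) and 4 fell (15.4%), and without WT replicate 1 none rose and 2 fell. Those that fell were Pgk2 and 3 further glycolytic enzymes with forms specific to, or abundant in, spermatids. Hk1, hexokinase, held 1448, 1493 and 1391 RPM in WT and 779 to 1095 RPM in KO (-0.65, adjusted p = 0.00203), Pgam2 fell by 0.53 and Gapdhs by 0.75. The groups overlapped for Gapdhs, and its call was lost without WT replicate 1 (adjusted p = 0.0967) and without WT replicate 2 (0.0747). Those that rose were Slc16a1, a lactate transporter (0.58), and Ldhb, a lactate dehydrogenase subunit of somatic cells (0.56). Of 12 polyamine genes 1 fell and 1 rose (8.33% each). Oaz3 fell, as above, and Sat1, which acetylates spermidine for breakdown, rose from 3.08 to 5.63 RPM in WT to 6.66 to 13.2 RPM in KO (1.16; adjusted p = 0.0879 without WT replicate 1).

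Glutathione and antioxidant genes rose in 10 of 31 (32.3%) and fell in 2 (6.45%), with a median of 0.59, and 4 rose without WT replicate 1. Gstm1, a glutathione transferase, held 497, 663 and 503 RPM in WT and 761 to 1014 RPM in KO (0.61), and Gstm2 held 294, 386 and 351 RPM in WT and 441 to 585 RPM in KO (0.61). Both were called in every alternative. Gstm5 went the other way, with 2689.8, 2188 and 2339.5 RPM in WT and 1533 to 1884 RPM in KO (-0.46), a call lost without WT replicate 1 (adjusted p = 0.0513). The Gstm genes are close copies in a row on chromosome 3, so reads may have been split between them. Gpx1, a glutathione peroxidase, rose by 0.64, while Gpx4, which forms part of the sperm midpiece, fell by 0.41.

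Of 20 retinoic acid genes 2 rose (10%) and 1 fell (5%), against 5.1% and 2.92% of all tested genes. Aldh1a1 is given above, and Stra6, a retinol transporter, fell from 79.9 to 89.0 RPM in WT to 51.5 to 61.5 RPM in KO (-0.56). Stra6 lost the call without WT replicate 1 (adjusted p = 0.0554). Of 23 hormone receptors Nr5a1, Lhcgr and Prlr, the prolactin receptor (0.79), rose (13%) and none fell. Prlr lost the call without WT replicate 1 (adjusted p = 0.0904) and without WT replicate 2 (0.0602). Of 19 immediate early genes Klf6 (1.13), Ier2 (0.96) and Egr2 rose, 15.8% of those tested. Egr2 had no reads in the 3 WT libraries, which allows up to 0.304 to 0.42 RPM, and held 0.994 to 2.44 RPM in KO. All 3 were lost without WT replicate 1 (adjusted p = 0.092, 0.154 and 0.0703).

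Chaperone and unfolded protein genes rose in 7 of 29 (24.1%) and fell in 2 (6.9%). Hsp90ab1, a cytosolic chaperone, held 342, 349.5 and 387 RPM in WT and 452 to 577 RPM in KO (0.51, adjusted p = 0.00477), and was called in every alternative. Hyou1 (0.81), Canx (0.51), Hsp90b1 (0.36) and Xbp1 (0.62), which serve the endoplasmic reticulum, and Atf4 (0.57) and Sesn2 (0.64) of the stress response rose too. Hspa1l, a chaperone of spermatids (-0.51), and Herpud1 (-0.54) fell. With median-of-ratios scaling, and without WT replicate 1, 2 and 1 of the list were called higher.

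The largest rises were taken among called genes with no overlap of the groups, at least 5 RPM in the higher group and no predicted or clone name, and Masp1 (2.38) and Cdh5 (1.81), given above, are 2 of the 10. Mrs2, a magnesium channel of mitochondria, held 50.2 RPM in WT replicate 1 but 4.29 and 5.46 RPM in WT replicates 2 and 3, and 53.0 to 80.2 RPM in KO (2.53 ± 0.47, limma adjusted p = 0.00504). WT replicate 1 was thus close to the KO range while the others were far below it. The 4 heterozygotes spanned 4.89 to 76.8 RPM for the same gene. Emilin2, a matrix glycoprotein, held 1.21, 1.07 and 1.54 RPM in WT and 3.10 to 24.0 RPM in KO (2.32), and 0.413 to 19.1 RPM in heterozygotes. Timp1 and Syn1, which overlap on the X chromosome on opposite strands, rose by 2.33 and 2.14. Timp1 held 0.607, 9.92 and 6.86 RPM in WT and 11.7 to 36.2 RPM in KO, and Syn1 1.32, 10.3 and 7.56 RPM and 13.1 to 36.9 RPM. Without WT replicate 1 the Timp1 difference was 1.48, and with title number 2 only neither Timp1 (adjusted p = 0.0834) nor Syn1 (0.0699) was called, nor Emilin2 (0.0658). Syn1 encodes synapsin of nerve terminals and Timp1 lies within its span, so their reads cannot be told apart where strand was not counted. In KO replicate 5 both genes held 30.2 RPM, and their levels nearly matched in the other KO libraries. The 2 rises therefore cannot be taken as separate. Both lay at 0.551 to 1.39 RPM in the 4 heterozygotes.

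The other rises of the 10 were Gprc5a (1.96), Cnn3, a calponin (1.93), Il10ra, the receptor for interleukin 10 (1.90), and Col18a1, a basement membrane collagen (1.80). Cnn3 held 3.24, 19.6 and 16.7 RPM in WT and 21.1 to 67.1 RPM in KO, and without WT replicate 1 its difference was 1.21. Col18a1 held 12.6 to 13.2 RPM in WT, 60.8 to 115 RPM in KO of number 1 and 16.8 to 41.7 RPM in KO of number 2, and the 2 KO sets differed by -1.38 (limma adjusted p = 0.0376). Gprc5a, Cnn3 and Col18a1 lost the call without WT replicate 1 (adjusted p = 0.0976, 0.0699 and 0.0547) and Il10ra without WT replicate 2 or 3 (0.0924 and 0.0561).

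The largest falls under the same limits, which leave out genes whose groups overlap, were Olfr733, an olfactory receptor (-1.85), Tmod4, a tropomodulin that caps actin filaments (-1.59), Pik3cg, a lipid kinase subunit (-1.56), Tppp2, a tubulin-binding protein (-1.42), and Wnt3, a secreted signal (-1.39). Tppp2 held 87.9, 64.4 and 61.7 RPM in WT and 20.8 to 38.0 RPM in KO (median 24.4 RPM), and its adjusted p of 0.00122 was the lowest of these 5. Wnt3 held 67.3, 46.0 and 43.7 RPM in WT and 16.3 to 24.6 RPM in KO, with similar levels in both KO sets. Olfr733 held 8.70, 5.50 and 10.2 RPM in WT and 0.654 to 2.86 RPM in KO. Odf3b (-1.35), Tmem239 (-1.35), the kallikrein Klk1b8 (-1.34), Calml4 (-1.32) and Neurl1a (-1.29) followed. Olfr733, Tppp2, Wnt3 and Tmem239 were called in every alternative that tested them, and Tmod4, Pik3cg, Odf3b, Klk1b8, Calml4 and Neurl1a lost the call without WT replicate 1 (adjusted p = 0.0876, 0.197, 0.102, 0.0559, 0.12 and 0.139). Genes called lower spanned a median of 12.7 kb of genome, against 24.1 kb for genes called higher and 22.5 kb for those not called, and 143 of the 477 had predicted or clone names, against 45 of the 832. Such names were not counted over all tested genes. The median level of genes called lower was 149 RPM, against 36.9 RPM for genes called higher.

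The 2 kinds of KO library were also set beside each other. KO of number 1 against WT gave 1334 genes higher (8.18%) and 519 lower (3.18%). KO of number 2 against WT, all with title number 2, gave 268 higher (1.64%) and 402 lower (2.46%). These comparisons share the WT libraries. Single libraries moved these counts too. For number 1 they were 760 and 292 without WT replicate 1, 776 and 366 without KO replicate 2 and 708 and 270 without KO replicate 3. For number 2 they were 67 and 212 without WT replicate 1, 160 and 248 without WT replicate 2, 117 and 346 without KO replicate 4, 52 and 206 without KO replicate 5 and 149 and 237 without KO replicate 6. Of the sperm chromatin list 7 fell in KO of number 1 and 8 in KO of number 2, and of the late spermatid list 20 and 21. Of the Leydig list 13 and 11 rose, of the Sertoli list 16 and 5, of the cathepsins 11 and 3, and of the matrix list 10 and 4. These counts come from the fit of 3 groups. With the libraries of title number 2 only, 8 of the sperm chromatin list and 21 of the late spermatid list fell. In that fit 11 of the Leydig list, 2 of the Sertoli list, 2 of the cathepsins and 1 of the matrix list rose. Of the antioxidant list 2 rose, of the chaperone list 1, and of the macrophage and cholesterol lists none. Directly compared, number 2 exceeded number 1 in 46 genes (0.282%) and was lower in 62 (0.38%). Leaving out 1 KO library gave 32 and 31 (replicate 1), 19 and 20 (replicate 2), 22 and 24 (replicate 3), 25 and 35 (replicate 4), 19 and 24 (replicate 5) and 40 and 30 (replicate 6). In the direct comparison with all KO libraries, number 2 was higher in 3 Leydig genes and lower in 1. For the Sertoli list it was higher in 1 and lower in 2, and for the matrix list lower in 2. No gene of the cathepsin, sperm chromatin or late spermatid lists was called there.

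Among the largest of those differences, Ibsp, a bone sialoprotein, held 12.6 to 45.1 RPM in KO of number 1 and 0.222 to 2.18 RPM in KO of number 2, against 0 to 1.82 RPM in WT. Ccl8, a monocyte chemokine, held 15.4 to 25.2 RPM in number 1, 0.443 to 4.55 RPM in number 2 and 0.809 to 1.26 RPM in WT. Gdf9, a growth factor of the transforming growth factor family, held 3.48 to 11.6 RPM in number 1 and at most 0.115 RPM in number 2. In the other direction, Bpifb5 held 0.654 to 2.10 RPM in number 1 and 20.3 to 46.3 RPM in number 2, and Olfr1188 at most 0.14 RPM in number 1 and 3.95 to 11.4 RPM in number 2. Ibsp and Ccl8 of number 2 overlapped the WT range, as did Olfr1188, which held 4.16 to 11.6 RPM in WT. WT libraries differed among themselves for Bpifb5, with 21.6 RPM in WT replicate 1 and 1.21 and 1.82 RPM in the others.

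The heterozygotes, outside the comparison, gave no called gene against WT (0% of 16313) by limma, with 958 genes at an unadjusted p under 0.05, and none by limma-voom, with 903.

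The called genes were not spread evenly over the chromosomes. On the X chromosome 58 of 607 tested genes rose (9.56%), against 4.92% of autosomal genes, and 17 fell (2.80%), with a median difference of 0.34 on X and 0.14 on autosomes. In meiosis the X chromosome is silenced, and many of its genes are read in somatic cells and spermatogonia. Several X-linked genes named above rose (Timp1, Syn1, Ikbkg, Nsdhl, Tex11 and Sat1) and Akap4 fell. As given above, Timp1 and Syn1 cannot be taken as separate rises. KO of number 1 had 100 X-linked genes higher than WT (16.5%, against 8.18% of all tested genes) and 7 lower. KO of number 2 had 22 higher (3.62%, against 1.64%) and 16 lower. Over all tested genes 3.18% were lower in number 1 and 2.46% in number 2. Without WT replicate 1, 18 X-linked genes rose (2.97%) and 1 fell, and the median was still 0.31. Over all 16313 tested genes 171 rose and 177 fell in that setting. With median-of-ratios scaling 30 X-linked genes rose (4.94%) and 22 fell, with a median of 0.22. Over all 16313 tested genes 385 rose and 704 fell there, with a median of 0.02.

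**Figure D5:**
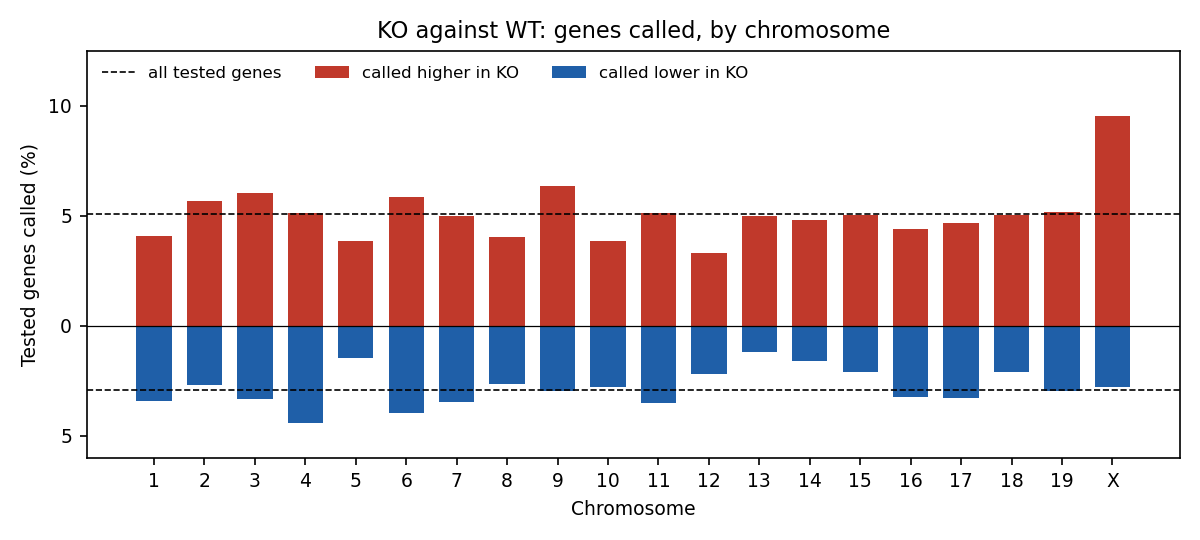
Share of tested genes called in KO against WT (y axis, percent) on each autosome and the X chromosome (x axis), higher above the zero line and lower below it. The X chromosome has the tallest upper bar, 9.56%, and dashed lines mark the shares over all tested genes, 5.1% and 2.92%.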

How the data were processed

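RNA of adult mouse testis was measured in 13 libraries, of which 3 WT and 6 KO enter the comparison. The deposited table holds log2 RPM per gene, made by the authors for 25965 genes. Per the submitters' processing notes, the tools included Trim Galore 0.6.6 and FastQC 0.11.8, with build mm10. The sources used here name no aligner, counter or counting strand. Of all tested genes 33.5% overlap another listed gene, among them Ikbkg, Tssk6, Nr5a1, Ctsd, Ctsz, Htra1, Hk1 and Ace. Some reads of such genes may belong to the neighbour. The lowest value of each library equals 0.9 read and was set to 0; above it at least 99.98% of the values were whole reads (within 0.01 read). Of a total depth of 4.51 to 9.88 M reads per library, 92.7% to 94.8% fell in the listed genes. None of the 13 listed mitochondrial genes had reads, so their share was no check. Replicates of a group all differed by more than sampling noise.

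Groups were taken from the labels. Two-sided tests were made with limma 3.58.1 (trended variance) in R 4.3.3 on log2(RPM + 1), for the 16313 genes whose mean over the 9 libraries reached 1 RPM, and p-values were adjusted by Benjamini and Hochberg. Differences understate the change of low genes. For the title numbers, the KO group was split and 3 groups were fitted. The test was tried on simulated data. Wfdc15a was also tested by exact permutation. Lists were described by counts and medians, with no test of a list, and a gene can stand on several lists. Comparison, lists and rules were chosen with earlier results of these data known.

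Named genes were Wfdc15a, the 10 largest rises and falls without overlap (at least 5 RPM in the higher group, no predicted or clone names), up to 4 called members of each list by adjusted p (with none called, its member of highest level), the defining markers, and the 5 largest differences each way between the KO sets; other members named to complete a list were chosen after their values were seen. A few genes that the rule names are not reported here, but they enter the fits and the counts of the lists. Alternatives were another pseudocount (0.25 RPM), no filter, a minimum of 5 RPM, median-of-ratios scaling, quantile normalization, limma-voom, all 13 libraries in the fit, a replicate block, each title number alone, and each library left out. A comparison of promoter motifs (the CRE TGACGTCA, the AP-1 sites TGAGTCA and TGACTCA, the SF-1 site CAAGGTCA and CCAAT, on both strands) was void, because RefSeq windows matched only 66.0% of the genes called lower and 73.6% of those called higher. RefSeq's Prm1 start lies 63 bases inside the start in the deposited table; those of Prm2, Tnp1 and Tnp2 are identical. Figures were drawn with matplotlib 3.10.9.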

Additional observations from a re-analysis of the deposited data

Results flagged for a closer look

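Differences between KO libraries of title number 2 and title number 1 that passed the limma test (adjusted p under 0.05) are given for 14 of the named genes. They are given as number 2 minus number 1 on the log2 scale, and the sources used here do not say what the title number stands for. Wfdc15a, the targeted gene, differed by 1.10 (adjusted p = 0.0463). Higher in number 1 among genes called in KO against WT were Col18a1 (-1.38), C7 (-1.15), Serpina5 (-0.83) and Insl3 (-0.81), and of these 4 genes all but Serpina5 were above WT in every library of number 2. Higher in number 2 were Bpifb5 (3.61), a protein of the BPI fold family, the kallikreins Klk1b22 (3.42) and Klk1b16 (2.71), the olfactory receptor Olfr1188 (2.97) and Tpbg (2.66), a surface glycoprotein. Higher in number 1 were Ibsp (-3.82), Ubash3a (-3.05), Ccl8 (-3.00) and Gdf9 (-2.82). Klk1b16 and Klk1b22 belong to a family of close copies whose reads the counting may have split.

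Single KO libraries stood apart from the other 5 in 2 of 137 named genes by Dixon's gap test at the 95% level, which chance passes in about 1 of 20 groups. Pik3cg had 0 RPM in KO replicate 6, against 1.11 to 1.86 RPM in the others, and a count of 0 there allows up to 0.344 RPM. Klf6, an immediate early gene, held 9.64 RPM in KO replicate 6, against 15.5 to 18.4 RPM in the others.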

How the results depend on the processing

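Of the 112 named genes called in KO against WT, 41 kept direction and call in every alternative that tested them; 64 lost the call without WT replicate 1 and 58 with title number 2 only. The highest adjusted p any of the 112 reached in an alternative was 0.29 (Wfdc10). Counts of genes called higher and lower in KO against WT were 441 and 325 with no filter, 385 and 704 with median-of-ratios scaling, 342 and 466 with quantile normalization, 161 and 340 with title number 2 only and 1255 and 527 with KO of title number 1 only; leaving out 1 library gave 171 to 1038 and 177 to 495. For KO of number 1 against WT they were 849 and 333 with no filter and 853 and 945 with median-of-ratios scaling. Quantile normalization gave 660 and 605, and leaving out 1 library gave 708 to 1379 and 270 to 580. For KO of number 2 against WT they were 59 and 214 with no filter and 93 and 582 with median-of-ratios scaling. Quantile normalization gave 120 and 408, and leaving out 1 library gave 52 to 251 and 206 to 403. For number 2 against number 1 they were 13 and 15 with no filter and 24 and 30 with all 13 libraries in the fit. Limma-voom gave 20 and 45, and leaving out 1 library gave 19 to 50 and 20 to 78. The replicate block, which rests on KO replicates 1 to 3, called 1405 and 590 genes and put Wfdc15a at -1.20 (limma adjusted p = 0.00209); same-numbered WT and KO libraries deviated together by r = 0.004, 0.011 and 0.024 only, so the numbers were not taken as pairs. Leaving out 1 library moved the Wfdc15a difference between -0.85 and -0.45. Genes that were not called changed sign: Uchl1 with quantile normalization (-0.0021) and title number 2 only (-0.019); Acrv1 with median-of-ratios scaling (-0.12), title number 2 only (-0.0043) and without WT replicate 2 or KO replicate 1 (-0.0046, -0.0094), with up to 0.057 when other libraries were left out; Acta2 with median-of-ratios scaling (-0.012), title number 2 only (-0.0059) and without WT replicate 1 or KO replicate 2 (-0.11, -0.0027), with up to 0.39 for other libraries; and Hba-a1 with the block or KO of title number 1 only (0.11) and without WT replicate 1 or KO replicate 6 (0.41, 0.0056), with down to -0.33 for other libraries. The causes were not tested. With 3 WT libraries, precision is limited by their number, and depth limits genes near 0.304 to 0.665 RPM.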
